A study of Mus musculus with 8 samples.

Results

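The genes described here are 9 markers of otic fibrocytes and of the mesenchyme around the cochlear duct: *Coch*, *Otor*, *Otos*, *Car3*, *Pou3f4*, *Tbx18*, *Tbx15*, *Twist1* and *Pdgfra*. They were chosen by symbol, and their Ensembl identifiers were found through the NCBIM37 mouse annotation, which gave all 9 of the 36536 genes counted in each library. The RNA-seq libraries came from sorted cochlear cells of P1 and P6 mice of the B6;FVB-Tg(Lfng-EGFP)HM340Gsat/Mmucd strain, and every group carried this BAC transgene, in which *Lfng* regulatory sequence drives GFP. The 4 groups were P1 GFP+, P1 GFP-, P6 GFP+ and P6 GFP- cells, with 2 replicate libraries each. GFP+ cells were the brightest gate and hold most supporting cell types, without inner pillar cells, whereas GFP- cells are a mixture of the other cochlear cells. The cells of each library were pooled from many cochleas. At P1 the stria vascularis, the lateral wall and Reissner's membrane were dissected away, whereas at P6 these tissues were removed only in part, so age and dissection cannot be told apart in any comparison of P6 with P1. In bulk samples of this kind, fewer cells of a type and less RNA per cell cannot be told apart.

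Otic fibrocytes are connective tissue cells of the spiral ligament and the spiral limbus. They develop from the periotic mesenchyme, return potassium ions from the hair cells toward the stria vascularis through gap junctions and transporters, and secrete the extracellular matrix of the lateral wall. *Pou3f4* and *Tbx18* encode transcription factors required in the periotic mesenchyme for these cells to form, and mutations in *POU3F4* and *COCH* cause hearing loss in humans.

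*Coch*, *Otor* and *Otos* encode the secreted proteins cochlin, otoraplin and otospiralin, and they are shown by their promoter sequences because the levels of *Coch* and *Otor* ran together across the libraries while those of *Otos* did not. Each sequence runs from 250 bases before to 50 bases after the RefSeq start of the gene (GRCm38.p6), 5' to 3' on the strand of the gene. Capitals mark matches, on either strand, to the TATA box letters TATAAA and the E-box letters CANNTG, the site of basic helix-loop-helix factors such as TWIST1. The windows lie at chr12:51593091-51593390 (plus strand), chr2:143078143-143078442 (plus strand) and chr1:92648792-92649091 (minus strand).
Coch: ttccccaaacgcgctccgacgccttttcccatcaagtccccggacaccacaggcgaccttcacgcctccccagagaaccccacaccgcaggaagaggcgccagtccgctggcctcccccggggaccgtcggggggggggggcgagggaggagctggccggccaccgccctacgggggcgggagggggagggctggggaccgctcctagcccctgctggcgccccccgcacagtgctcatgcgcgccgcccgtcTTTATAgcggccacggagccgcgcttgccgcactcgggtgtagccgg
Otor: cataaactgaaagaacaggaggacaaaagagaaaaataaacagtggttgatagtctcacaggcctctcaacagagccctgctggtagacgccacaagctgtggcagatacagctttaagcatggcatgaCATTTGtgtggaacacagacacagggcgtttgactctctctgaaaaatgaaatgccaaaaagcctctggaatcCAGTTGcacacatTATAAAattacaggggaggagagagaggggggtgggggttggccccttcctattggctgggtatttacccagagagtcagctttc
Otos: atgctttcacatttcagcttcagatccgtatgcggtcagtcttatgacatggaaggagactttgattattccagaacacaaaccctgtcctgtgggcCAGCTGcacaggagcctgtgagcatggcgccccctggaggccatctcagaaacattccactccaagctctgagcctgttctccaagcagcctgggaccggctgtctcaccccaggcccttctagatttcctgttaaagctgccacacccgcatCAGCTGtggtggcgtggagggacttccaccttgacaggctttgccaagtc
The *Otor* window held a TATA box 35 bases before the start and 2 E-boxes, CATTTG and CAGTTG. The *Otos* window held no TATA box and 2 E-boxes of the letters CAGCTG, and the *Coch* window, with a GC content of 73.7%, held a match to the TATA box only on the reverse strand, 3 bases after the start. Of all 32851 promoter windows of this length, 13.6% held TATAAA and 72.3% held CANNTG, and the median GC content was 52.7%. Promoter windows matched 7 of the 9 genes (not *Tbx15* and *Car3*). None of the 7 held the T-box factor site TCACACC, found in 3.98% of all windows, or the octamer ATGCAAAT bound by POU factors, found in 1.74%. None of the marked matches in the printed windows overlapped another.

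Counts on genes numbered 17769024 to 67695039 in the 8 libraries, and a level is given per 1000000 gene counts of its library (CPM). The summed level of 5 supporting cell markers (*Lfng*, *Prox1*, *Sox2*, *Hes5* and *Fgfr3*) was 3912 to 6354 CPM in the 4 GFP+ libraries and 62.6 to 127 CPM in the 4 GFP- libraries. P6 GFP+ replicate 2 stood apart from replicate 1: its supporting cell markers summed to 0.688 of those in replicate 1, and the lists of all 12 other cell types summed higher, by 1.19 to 8.10 times. Single markers did not all follow. The supporting cell marker *Prox1* was higher in replicate 2 (132.7 against 81.4 CPM). Only 2 of 4 adipocyte, 2 of 5 skeletal muscle, 3 of 4 Schwann cell, 3 of 4 neuron, 4 of 5 cartilage and 4 of 5 hair cell markers were higher in it. In the other lists every marker was. The adipocyte list summed to only 0.0563 CPM in replicate 1 and 0.201 CPM in replicate 2. Many comparisons of P6 GFP+ cells are therefore also given without replicate 2, and the others only with it.

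At each age, 8 of the 9 genes were called lower in GFP+ than in GFP- cells. The exceptions, *Otos* at P1 and *Tbx15* at P6, had a lower mean in GFP+ cells but did not pass the test. The 8 of 9 at P1 passed the test at an adjusted p below 0.05, where 28.1% of the 18682 genes tested did. At P6 the 8 of 9 passed it where 17.9% of 18294 genes did. The median log2 difference of GFP+ from GFP- cells over the 9 genes was -5.16 at P1 and -3.10 at P6, and over all genes tested it was 0.01 and -0.02. The P6 median of the 9 was -4.25 without P6 GFP+ replicate 2 and -2.31 without replicate 1. Both GFP- libraries lay above both GFP+ libraries for 8 genes at P1, as for 44.9% of all genes tested, and for all 9 at P6, as for 37.6%. Under the criteria of the study, an adjusted p below 0.01 and a fold change above 4, all 8 remained at P1, where 11.4% of all genes tested passed. At P6, 3 did (*Coch*, *Twist1* and *Pdgfra*), where 3.1% passed. The number called lower at P6 at an adjusted p below 0.05 depended on the libraries, over all genes as over the 9. Without P6 GFP- replicate 2 it was 5 of 9, where 4.8% of all genes tested were called lower. It was 9 of 9 without P6 GFP+ replicate 1, where 19.8% were, and without P6 GFP+ replicate 2, where 28.1% were.

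**Figure D1:**
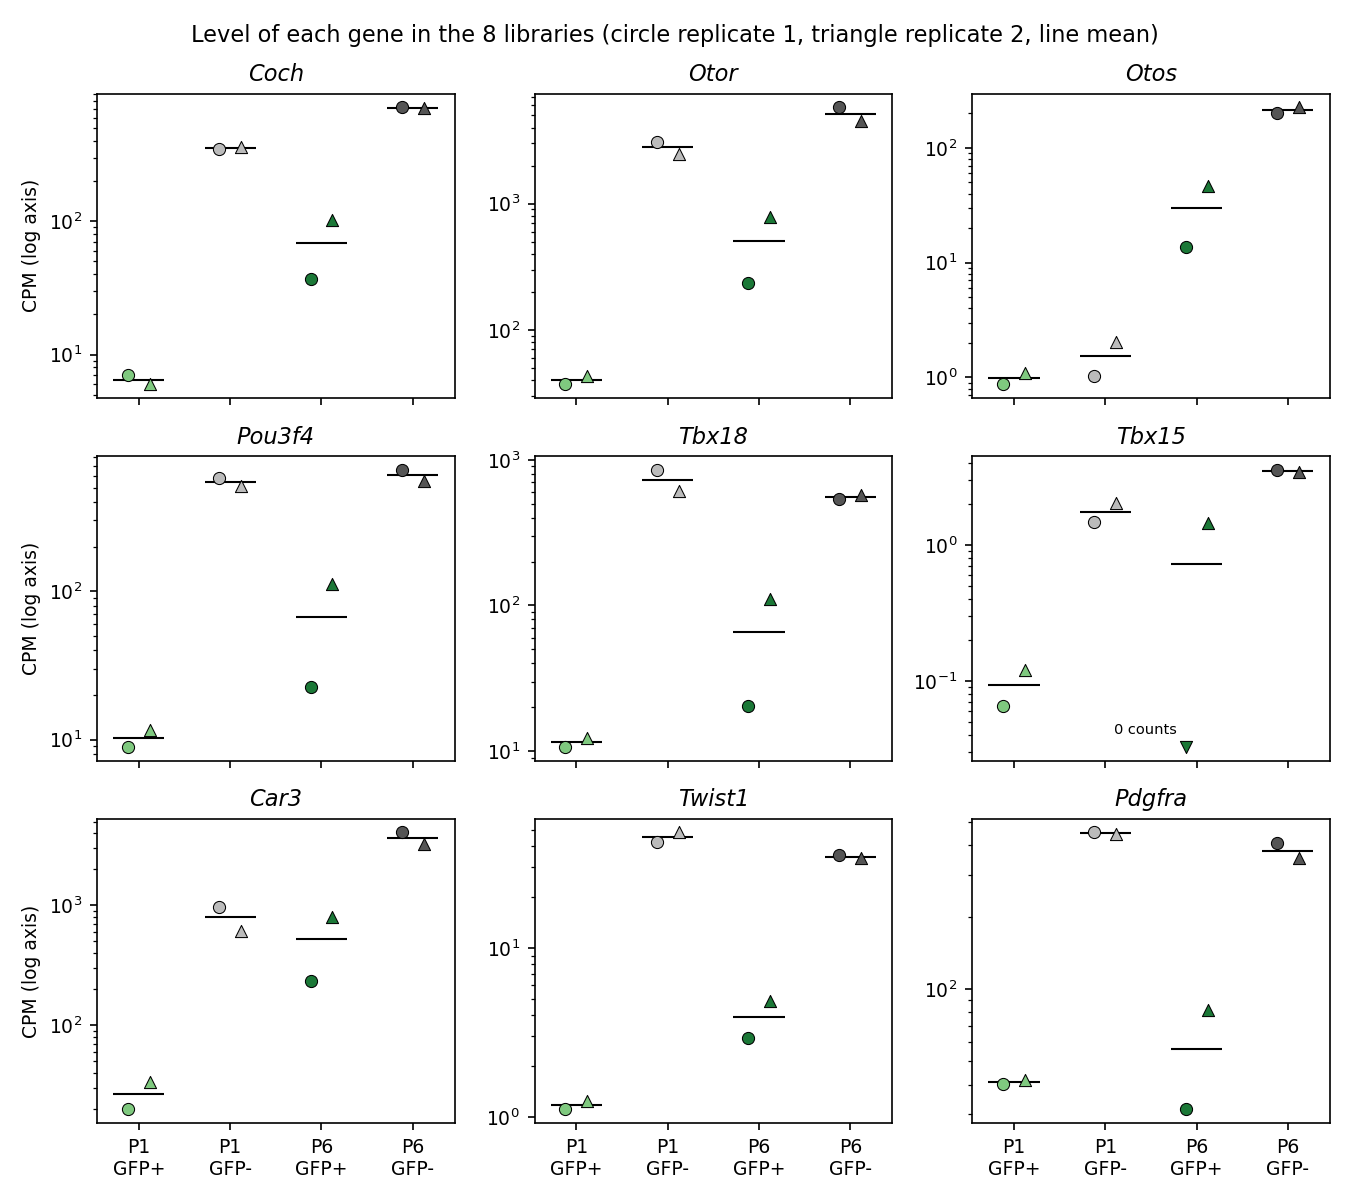
Level of each of the 9 genes in CPM (log axis) in the 8 libraries, with circles for replicate 1, triangles for replicate 2 and a line for the group mean. In GFP- cells 8 genes lay above both GFP+ libraries at P1 and all 9 at P6, *Otos* was near 1 to 2 CPM in both P1 fractions, and P6 GFP+ replicate 2 lay above replicate 1 for every gene.

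**Figure D2:**
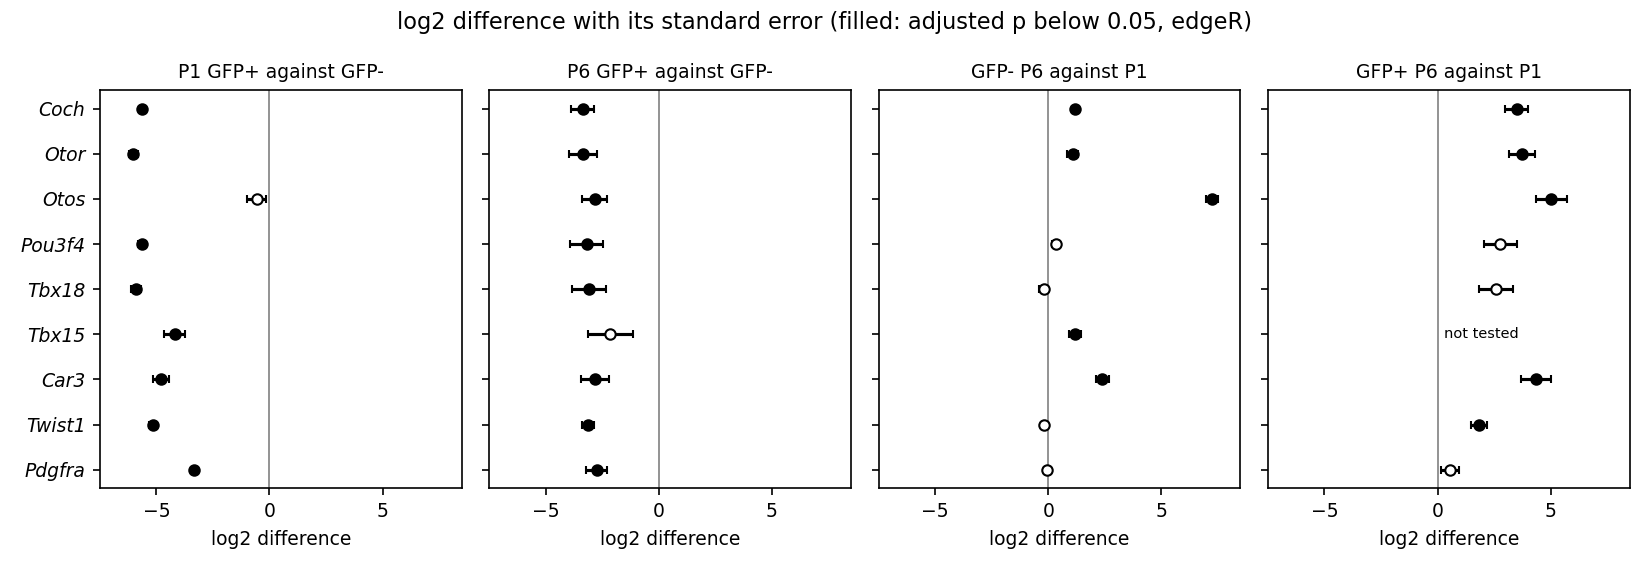
log2 difference of each gene in 4 comparisons, fitted with edgeR, with the standard error as a bar and filled points for an adjusted p below 0.05. Bars were short at P1 and longer wherever P6 GFP+ cells entered, and in GFP- cells the P6 to P1 difference ran from -0.20 (*Tbx18*) to 7.25 (*Otos*).

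*Otor* (ENSMUSG00000027416, chromosome 2, 142904209 to 142907449, NCBIM37) had the highest level of the 9 in every group per exon length. It measured 37.1 and 43.0 CPM in P1 GFP+ cells, 3096 and 2482 CPM in P1 GFP- cells, 234 and 783 CPM in P6 GFP+ cells and 5791 and 4526 CPM in P6 GFP- cells. By CPM, which is not divided by gene length, it ranked 12 and 17 among all genes in the GFP- libraries of P1, and 7 and 8 in those of P6. Both GFP- libraries lay above both GFP+ libraries at each age, and within each fraction both P6 libraries lay above both P1 libraries. The mean level was 69.6 times higher in GFP- cells at P1 (log2 difference -6.02, SE 0.19, adjusted p = 1.16e-05) and 10.2 times higher at P6 (-3.36, SE 0.62, adjusted p = 0.0122). Without P6 GFP+ replicate 2 the P6 log2 difference was -4.45, and without replicate 1 it was -2.70. From P1 to P6, *Otor* rose 1.85 times in GFP- cells (log2 difference 1.08, SE 0.24, adjusted p = 0.0219). Without P6 GFP- replicate 1 this change was 0.87 with an adjusted p of 0.0987.

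*Coch* (ENSMUSG00000020953, chromosome 12, 52694361 to 52706760, NCBIM37) encodes cochlin, an abundant protein of the spiral ligament and limbus matrix. Its level was 6.98 and 5.99 CPM in P1 GFP+ cells, 350.3 and 361 CPM in P1 GFP- cells, 36.9 and 102 CPM in P6 GFP+ cells and 718 and 706 CPM in P6 GFP- cells. As with *Otor*, no group overlapped another within an age or within a fraction. The mean was 54.9 times higher in GFP- cells at P1 (log2 difference -5.66, SE 0.13, adjusted p = 9.99e-06) and 10.3 times higher at P6 (-3.37, SE 0.49, adjusted p = 0.00657). The P6 value was -4.25 without P6 GFP+ replicate 2 and -2.78 without replicate 1. In GFP- cells *Coch* rose 2.00 times from P1 to P6 (1.19, SE 0.12, adjusted p = 0.00156), and with all 8 libraries in the fit this change was 1.22 with an adjusted p of 0.0670.

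*Otos* (ENSMUSG00000044055, chromosome 1, 94540795 to 94545418, minus strand, NCBIM37) encodes otospiralin, a small protein of fibrocytes of the spiral ligament and limbus. At P1 it was barely counted: 40 and 27 counts in the GFP+ libraries and 39 and 128 counts in the GFP- libraries, which are 0.873 and 1.08 CPM against 1.03 and 2.03 CPM. The fractions overlapped at P1, and the log2 difference was -0.57 (SE 0.41, adjusted p = 0.287). Without P1 GFP- replicate 1 it was -0.996 with an adjusted p of 0.0137, and without P1 GFP- replicate 2 it was -0.0043 with an adjusted p of 0.994. At P6 it stood at 202 and 226 CPM in GFP- cells and at 13.6 and 46.6 CPM in GFP+ cells, with every P6 library above every P1 library. The P6 mean in GFP- cells was 139.7 times the P1 mean (log2 difference 7.25, SE 0.28, adjusted p = 5.40e-05), the largest rise among the 9 genes in this fraction. At P6 it was 7.10 times higher in GFP- than in GFP+ cells (-2.84, SE 0.55, adjusted p = 0.0142), which became -3.95 without P6 GFP+ replicate 2 and -2.17 without replicate 1.

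*Car3* (ENSMUSG00000027559, chromosome 3, 14863538 to 14872351, NCBIM37) encodes carbonic anhydrase 3, a cytosolic enzyme of low activity that is also abundant in skeletal muscle and fat. It measured 19.9 and 33.8 CPM in P1 GFP+ cells and 972 and 615 CPM in P1 GFP- cells. At P6 it was at 234 and 805 CPM in GFP+ cells and at 4052 and 3241 CPM in GFP- cells, where it ranked 13 and 16 among all genes by CPM. The GFP- libraries lay above the GFP+ libraries at each age, and the P6 above the P1 libraries in each fraction. The ratio of GFP- to GFP+ means was 29.6 at P1 (log2 difference -4.80, SE 0.34, adjusted p = 0.000124) and 7.02 at P6 (-2.83, SE 0.60, adjusted p = 0.0188). The P6 value was -3.94 without P6 GFP+ replicate 2, -2.16 without replicate 1, and -2.998 with an adjusted p of 0.0511 without P6 GFP- replicate 2. In GFP- cells *Car3* rose 4.59 times with age (2.39, SE 0.28, adjusted p = 0.00221). The skeletal muscle markers *Acta1*, *Ckm*, *Myog* and *Myh3* did not exceed 0.412 CPM in any library, *Des* fell from 23.8 and 20.4 to 10.7 and 13.9 CPM in GFP- cells (log2 difference -0.66, adjusted p = 0.0413), and the adipocyte markers *Adipoq*, *Plin1*, *Fabp4* and *Cidec* did not exceed 0.106 CPM.

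*Pou3f4* (ENSMUSG00000056854, chromosome X, 108009729 to 108010910, NCBIM37) encodes a POU-domain transcription factor. Its level was 8.95 and 11.7 CPM in P1 GFP+ cells, 583 and 511 CPM in P1 GFP- cells, 22.5 and 111 CPM in P6 GFP+ cells and 658 and 553 CPM in P6 GFP- cells. It was 53.0 times higher in GFP- than in GFP+ cells at P1 (log2 difference -5.64, SE 0.17, adjusted p = 1.09e-05) and 9.05 times at P6 (-3.19, SE 0.72, adjusted p = 0.0221). At P6 the difference was -4.73 without P6 GFP+ replicate 2, -2.42 without replicate 1, and -3.33 with an adjusted p of 0.0555 without P6 GFP- replicate 2. In GFP- cells the ages overlapped by CPM, without TMM, and the TMM-scaled change did not pass the test (0.34, SE 0.16, adjusted p = 0.175).

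*Tbx18* (ENSMUSG00000032419, chromosome 9, 87597635 to 87626095, minus strand, NCBIM37) encodes a T-box transcription factor. It measured 10.7 and 12.3 CPM in P1 GFP+ cells, 852 and 611 CPM in P1 GFP- cells, 20.4 and 111 CPM in P6 GFP+ cells and 541 and 572 CPM in P6 GFP- cells. The mean was 63.7 times higher in GFP- cells at P1 (log2 difference -5.89, SE 0.22, adjusted p = 1.53e-05) and 8.49 times at P6 (-3.10, SE 0.75, adjusted p = 0.0267). The P6 value was -4.75 without P6 GFP+ replicate 2, -2.31 without replicate 1, and -3.08 with an adjusted p of 0.0718 without P6 GFP- replicate 2. By CPM, without TMM, both P6 GFP- libraries lay below both P1 GFP- libraries, with a mean of 0.761 times. The TMM-scaled log2 difference was -0.20 (SE 0.18, adjusted p = 0.466), which was smaller than the spread between the P1 replicates.

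*Twist1* (ENSMUSG00000035799, chromosome 12, 34642536 to 34644682, NCBIM37) encodes a basic helix-loop-helix factor of mesenchymal cells. It was at 1.11 and 1.25 CPM in P1 GFP+ cells, 42.3 and 48.1 CPM in P1 GFP- cells, 2.93 and 4.89 CPM in P6 GFP+ cells and 35.2 and 34.1 CPM in P6 GFP- cells. The GFP- to GFP+ ratio was 38.3 at P1 (log2 difference -5.16, SE 0.16, adjusted p = 1.09e-05) and 8.86 at P6 (-3.14, SE 0.27, adjusted p = 0.00166). Its P6 GFP+ replicates differed least of the genes with counts in both, by 1.67 times, and the P6 difference was -3.54 without replicate 2 and -2.80 without replicate 1. With age in GFP- cells it was 0.766 times the P1 mean by CPM, and the TMM-scaled log2 difference was -0.19 (SE 0.12, adjusted p = 0.301).

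*Pdgfra* (ENSMUSG00000029231, chromosome 5, 75548316 to 75594229, NCBIM37) encodes the alpha receptor for platelet-derived growth factor, a receptor tyrosine kinase of mesenchymal cells. Its level was 40.2 and 41.7 CPM in P1 GFP+ cells, 450.3 and 444 CPM in P1 GFP- cells, 31.5 and 81.5 CPM in P6 GFP+ cells and 406 and 351 CPM in P6 GFP- cells. Of the 8 genes called lower in GFP+ cells at P1 it had the smallest ratio, 10.9 (log2 difference -3.34, SE 0.09, adjusted p = 1.02e-05), and at P6 the ratio was 6.70 (-2.76, SE 0.45, adjusted p = 0.00893). Without P6 GFP+ replicate 2 the P6 difference was -3.57, and without replicate 1 it was -2.19. Its levels did not pass the test for age in GFP- cells (-0.05, SE 0.14, adjusted p = 0.843) or in GFP+ cells (0.55, SE 0.41, adjusted p = 0.373).

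*Tbx15* (ENSMUSG00000027868, chromosome 3, 99044304 to 99158182, NCBIM37), a T-box gene related to *Tbx18*, was the least abundant of the 9 per exon length. Its counts were 3 and 3 in P1 GFP+ cells, 56 and 127 in P1 GFP- cells, 0 (replicate 1) and 43 (replicate 2) in P6 GFP+ cells and 219 and 231 in P6 GFP- cells. These counts are 0.0655 and 0.121 CPM, 1.48 and 2.01 CPM, 0 and 1.44 CPM, and 3.55 and 3.41 CPM. Both GFP- libraries lay above both GFP+ libraries at each age. At P1 the pooled counts were 21.4 times higher in GFP- cells, with an exact 95% interval of 9.63 to 59.0 that covers counting error only (log2 difference -4.20, SE 0.48, adjusted p = 0.000753). If 3 counts are taken as the most that a count of 0 allows, the limit in P6 GFP+ replicate 1 was 0.169 CPM. The P6 GFP- mean was 20.6 times this limit, which covers counting error only. At P6 the log2 difference was -2.14 (SE 0.98, adjusted p = 0.150), and it was -1.25 with an adjusted p of 0.00883 without P6 GFP+ replicate 1. In GFP- cells *Tbx15* rose 1.99 times with age (1.18, SE 0.28, adjusted p = 0.0299), a call lost without P6 GFP- replicate 1 (1.13, adjusted p = 0.180) or replicate 2 (1.25, adjusted p = 0.115).

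Among GFP- cells, 5 of the 9 genes rose from P1 to P6 (*Otos*, *Car3*, *Coch*, *Tbx15* and *Otor*), where 11.3% of the 18920 genes tested rose, and the other 4 (*Pou3f4*, *Tbx18*, *Twist1* and *Pdgfra*) did not pass the test. The median log2 difference of the 9 was 1.08, against -0.02 over all genes tested. *Otos* and *Car3* also met the criteria of the study, which 1.43% of genes met upward. With all 8 libraries in the fit, 2 of the 9 were called higher, where 7.68% of all genes tested were. *Coch*, *Otor* (adjusted p = 0.158) and *Tbx15* (adjusted p = 0.323) did not pass in that fit. Without P6 GFP- replicate 1, 3 of the 9 were called higher, where 4.05% of all genes tested were. Of 15 other mesenchyme genes, 7 rose and 2 fell in GFP- cells, with a median of 0.56, where 7.87% of all genes tested fell. Without P6 GFP- replicate 1 these were 2 and 1, where 4.05% of all genes rose and 1.74% fell, and without replicate 2 they were 5 and 1, where 5.84% rose and 2.42% fell. The collagens *Col1a2* (0.81, adjusted p = 0.0516) and *Col3a1* (-0.03, adjusted p = 0.931) did not pass the test. The small leucine-rich proteoglycans *Lum* (1.49, adjusted p = 0.00365) and *Dcn* (0.86, adjusted p = 0.0132) rose. The intermediate filament gene *Vim* fell by 0.73 and the matrix gene *Postn* fell by 0.77 on the log2 scale.

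**Figure D3:**
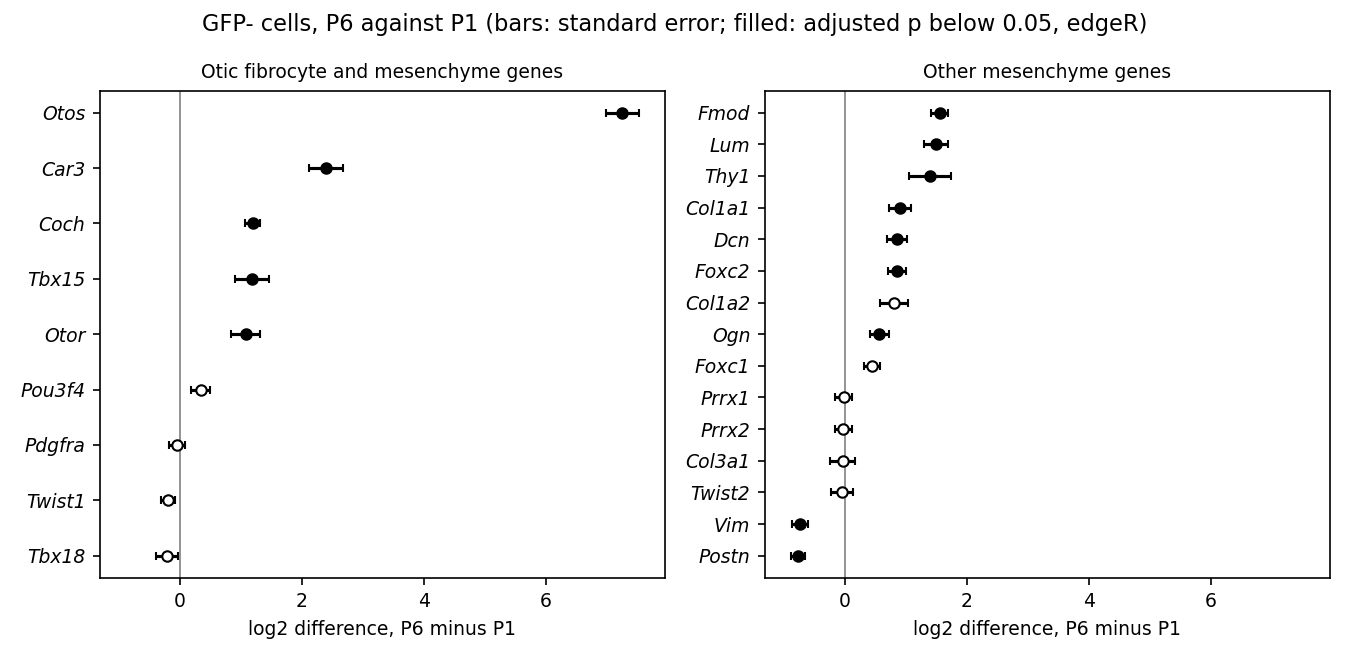
log2 difference between P6 and P1 GFP- cells for the 9 genes (left) and for 15 other mesenchyme genes (right), with the standard error as a bar and filled points for an adjusted p below 0.05 (edgeR). *Otos* at 7.25 and *Car3* at 2.39 lay above each of the 15 other genes, the highest of which was *Fmod* at 1.55.

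Markers of other cell types also moved between P1 and P6 in the GFP- fraction. The 5 osteoblast markers summed to 67.3 and 63.7 CPM at P1 and to 1163 and 1181 CPM at P6, and all 5 rose (*Bglap*, *Ibsp*, *Runx2*, *Sp7* and *Alpl*, adjusted p below 0.05), while the 15 other mesenchyme genes summed to 1.23 times and the cartilage markers to 2.27 times their P1 level. The macrophage list summed to 2.28 times and the melanocyte list to 1.85 times its P1 level. Single markers did not all follow these sums. Of 5 cartilage markers 3 rose and 1 fell, of 4 melanocyte markers 3 rose and 1 fell, and of 4 macrophage markers 3 rose. Over all genes tested 11.3% rose and 7.87% fell. Mean CPM went from 16.9 to 5.55 for the cartilage marker *Matn1* and from 2.50 to 0.433 for the melanocyte marker *Tyrp1*. The neuron list summed to 136 and 456 CPM at P1, 2 libraries far apart, and to 101 and 68.7 CPM at P6, and 1 of its 4 markers fell (*Nefm*, -1.91, adjusted p = 0.0424). Whether these marker changes reflect cell makeup, and any part of it in the rise of *Otos*, *Car3*, *Coch*, *Otor* and *Tbx15*, was not tested. With TMM normalization 2130 genes rose and 1489 fell in this comparison. Scaled by library totals alone, 1450 rose and 2866 fell and the median of all genes moved from -0.02 to -0.21, and the same 5 of the 9 genes were called higher.

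The level of each gene in GFP+ cells was also taken as a share of its mean in GFP- cells of the same age. P1 GFP+ libraries held a median of 2.46% (replicate 1) and 2.76% (replicate 2) of the P1 GFP- mean, and the range was 1.33% to 57.1% and 1.54% to 71.0%, with *Otos* highest in both. P6 GFP+ replicate 1 held 0% to 8.45% of the P6 GFP- mean, with a median of 5.18%. Replicate 2 held 14.1% to 41.4%, with a median of 19.9%. From P1 to P6, 5 of the 8 genes that could be tested rose in GFP+ cells (*Otos*, *Car3*, *Otor*, *Coch* and *Twist1*), where 12.1% of 17213 genes did. Their log2 differences were 5.04 (SE 0.67, adjusted p = 0.0105), 4.36 (SE 0.66, adjusted p = 0.0141), 3.74 (SE 0.59, adjusted p = 0.0155), 3.49 (SE 0.50, adjusted p = 0.0124) and 1.82 (SE 0.36, adjusted p = 0.0267) in that order. *Pou3f4* (2.78, adjusted p = 0.0534) and *Tbx18* (2.59, adjusted p = 0.0677) did not pass the test, and *Tbx15* was removed by the filter on low counts. Under the criteria of the study, 0 of the 8 passed (edgeR), where 1.63% of genes passed upward. DESeq2 called 6 higher at an adjusted p below 0.05, where it called 14.9% of all genes tested.

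Markers of some other cell types, but not of all, also rose from P1 to P6 in GFP+ cells, where 12.1% of all genes tested rose and 8.31% fell. Of 5 hair cell markers 0 rose and 2 fell (median -0.58), and 0 of 4 stria marginal cell markers passed (1.76). Of 4 neuron markers 1 rose (0.62), of 5 pericyte markers 2 rose and 1 fell (2.32), and of 4 cartilage markers tested 2 rose (0.96). All 5 osteoblast markers (median log2 difference 4.62), all 4 macrophage markers (2.65), 3 of 4 Schwann cell markers (2.30), both melanocyte markers tested (5.53) and 2 of 4 endothelial markers (2.41) passed the test as higher, while 3 of 5 supporting cell markers fell (-0.81). Without P6 GFP+ replicate 2 the osteoblast (3.23), macrophage (2.08), Schwann cell (1.67), melanocyte (4.50) and endothelial (1.06) medians were smaller. Leaving out P1 GFP+ replicate 2 left at most 2 markers of each of these lists called higher, where 2.3% of all genes tested were. The part of these cell types in the rise of *Otos*, *Car3*, *Otor*, *Coch* and *Twist1* was not tested.

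The rise in GFP+ cells was uneven between the P6 replicates. The summed level of the 9 genes was 126 and 151 CPM in P1 GFP+ cells and 596 and 2046 CPM in P6 GFP+ cells, so replicate 2 held 3.44 times as much as replicate 1 at P6 and 1.20 times as much at P1. All 9 genes were higher in P6 GFP+ replicate 2, as were 55.1% of the 17213 genes tested between the ages. In that library the summed osteoblast markers were 3.83 times, endothelial markers 3.82 times, melanocyte markers 3.19 times, Schwann cell markers 2.02 times and stria marginal cell markers 8.10 times those of replicate 1, and 4 of 5 supporting cell markers were lower. Without replicate 2, 7 of 8 genes were called higher at P6 in GFP+ cells, where 27.8% of all genes tested were, with smaller differences: 3.95 for *Otos*, 3.28 for *Car3*, 2.67 for *Otor*, 2.61 for *Coch*, 1.44 for *Twist1*, 1.26 for *Pou3f4* and 0.96 for *Tbx18*. *Pdgfra* then had a difference of -0.25 (adjusted p = 0.0684). Without replicate 1 all 9 were called higher, where 25.9% of all genes tested were, from 1.06 for *Pdgfra* to 5.66 for *Otos* among the 8 tested before. *Twist1* lost its call without P1 GFP+ replicate 1 (1.76, adjusted p = 0.157) or replicate 2 (1.87, adjusted p = 0.189). Of the 15 other mesenchyme genes, 11 rose in GFP+ cells, where 12.1% of all genes tested did, with a median log2 difference of 2.39 against 3.14 for the 8 genes tested and 0.00 for all genes. It was 13 of 15 without P6 GFP+ replicate 2 (median 1.81) and 15 of 15 without P6 GFP+ replicate 1 (median 2.60). It was 3 of 15 without P1 GFP+ replicate 2, where 2.3% of all genes tested were called higher.

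**Figure D4:**
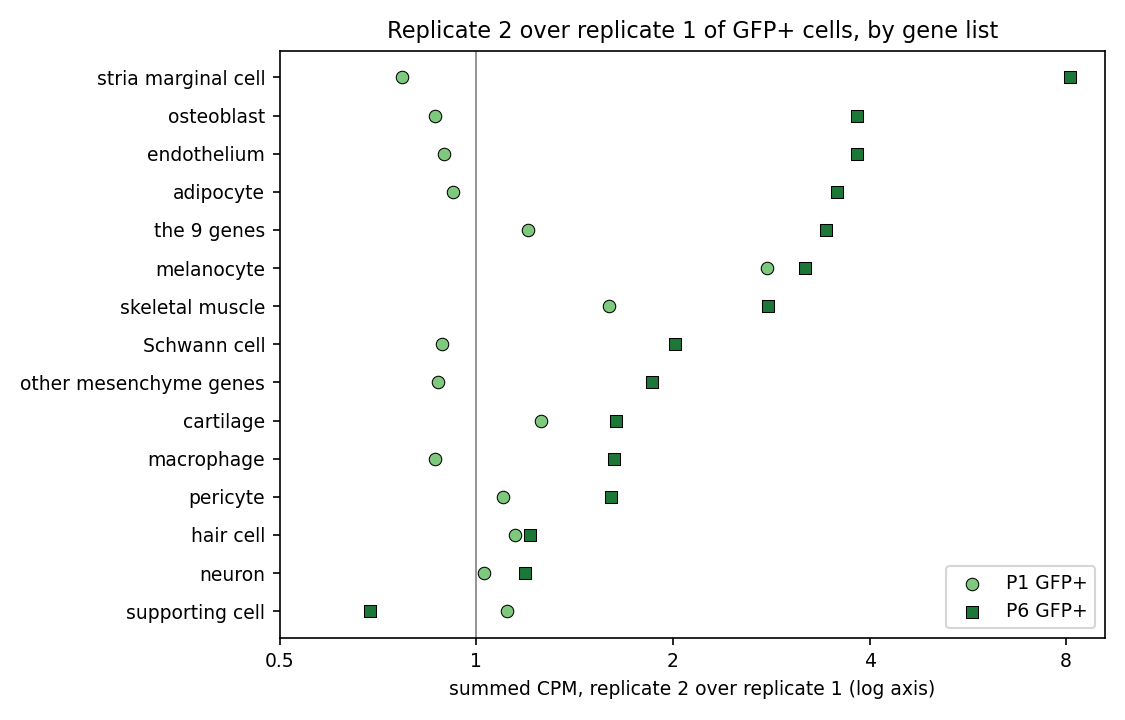
Summed CPM of each gene list in GFP+ replicate 2 divided by that in replicate 1 (log axis), with circles for P1 and squares for P6. At P6 the 9 genes stood at 3.44, the supporting cell list at 0.688 and the stria marginal cell list at 8.10, whereas at P1 the 9 genes stood at 1.20.

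Whether the gap between the fractions differed between the ages was tested in a fit of all 8 libraries with an interaction term. A positive value means that the log2 difference of GFP+ from GFP- cells was less negative at P6. Of the 9 genes, 2 passed the test (*Coch* at 2.28, SE 0.53, adjusted p = 0.0452, and *Twist1* at 2.01, SE 0.32, adjusted p = 0.0106), where 3.6% of 19233 genes passed upward. The other values were 2.77 for *Tbx18* (adjusted p = 0.0986), 2.63 for *Otor* (0.0559), 2.42 for *Pou3f4* (0.126), 2.04 for *Tbx15* (0.477), 1.94 for *Car3* (0.173), 0.57 for *Pdgfra* (0.561) and -2.24 for *Otos* (0.150), with the adjusted p in parentheses. Of all genes tested, 2.79% passed downward. By the criteria of the study 0 of the 9 passed upward (edgeR), where 0.66% did. DESeq2 called 6 upward, where it called 7.66% of all genes tested. *Otos* was the only gene of the 9 with a negative value, and its GFP- to GFP+ ratio went from 1.56 at P1 to 7.10 at P6. Leaving out single libraries moved this count of 2 between 0 and 8: it was 0 without either P1 GFP+ library or either P6 GFP- library, 1 without either P1 GFP- library, 4 without P6 GFP+ replicate 2 and 8 without P6 GFP+ replicate 1. The share of all genes called upward moved with it: 0.791% to 0.881% where the count was 0, 2.06% and 3.13% where it was 1, 6.26% where it was 4 and 9.15% where it was 8. With a replicate block *Coch* did not pass (2.19, adjusted p = 0.0847). The values without P6 GFP+ replicate 2 were 1.39 for *Coch*, 1.61 for *Twist1*, 1.55 for *Otor* (adjusted p = 0.01003) and -3.33 for *Otos* (adjusted p = 0.00194).

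The 15 other mesenchyme genes, a list of collagens, matrix proteins and transcription factors, were compared in the same way. All 15 were lower in GFP+ cells at P1 (median log2 difference -4.06), where 28.1% of all genes tested were lower (median 0.01). At P6 12 were lower (median -2.45), where 17.9% of all genes tested were (median -0.02). The P6 median of the 15 was -3.30 without P6 GFP+ replicate 2 and -1.88 without replicate 1. *Col1a2* stood at -5.59 (adjusted p = 1.16e-05) at P1 and -3.37 (adjusted p = 0.0147) at P6, where it was -4.54 without P6 GFP+ replicate 2 and -2.67 without replicate 1. *Lum* was the closest to 0, at -0.68 (adjusted p = 0.0209) at P1 and 0.21 (adjusted p = 0.531) at P6, with 765 and 656 CPM in P6 GFP+ cells against 680.4 and 545 CPM in P6 GFP- cells.

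Genes of the same families and of fibrocyte ion transport did not share a single direction. Of 6 transport genes, 2 were higher and 2 lower in GFP+ cells at each age, where 25.5% of all genes tested were higher at P1 and 15.5% at P6. The gap junction genes *Gjb2* (log2 difference 1.84 at P1 and 2.07 at P6) and *Gjb6* (1.87 and 2.47) were higher, and the water channel gene *Aqp1* (-5.67 and -3.24) and the cotransporter gene *Slc12a2* (-1.26 and -1.82) were lower. Without P6 GFP+ replicate 2 the P6 values were 2.23 for *Gjb2*, 2.67 for *Gjb6*, -4.40 for *Aqp1* and -2.41 for *Slc12a2*, and the calls of these 4 genes held. For PDGF signalling, the second receptor *Pdgfrb* was lower in GFP+ cells by -0.86 at P1 (adjusted p = 0.00259) and -2.48 at P6 (adjusted p = 0.0108), or -3.28 without P6 GFP+ replicate 2. It fell in GFP+ cells from 212 and 238 CPM at P1 to 37.8 and 96.3 CPM at P6 (-1.66, adjusted p = 0.0480), a difference of -2.45 without P6 GFP+ replicate 2 and -1.16 without replicate 1. Of the 4 ligands, *Pdgfd* was higher in GFP+ cells at P1 (1.35, adjusted p = 0.000155), *Pdgfb* (-1.75) and *Pdgfc* (-1.11) were lower, and *Pdgfa* did not pass the test (0.17). At P6 *Pdgfc* was lower (-1.70, adjusted p = 0.00477), whereas *Pdgfd* (0.43, adjusted p = 0.126), *Pdgfb* (-0.07, adjusted p = 0.934) and *Pdgfa* (-0.26, adjusted p = 0.287) did not pass. *Pdgfd* (0.59) and *Pdgfb* (-1.09) passed in their P1 directions without P6 GFP+ replicate 2, and without replicate 1 *Pdgfb* was at 0.56 (adjusted p = 0.0847).

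Among 6 other T-box genes, *Tbx1* was lower in GFP+ cells (-4.89 at P1, adjusted p = 2.30e-05, and -2.51 at P6, adjusted p = 0.0202), as *Tbx18* was, whereas *Tbx2* was higher (1.59, adjusted p = 0.000109, and 2.03, adjusted p = 0.00180). Without P6 GFP+ replicate 2 the P6 values were -3.72 for *Tbx1* and 2.14 for *Tbx2*, and without replicate 1 they were -1.84 and 1.97. *Tbx2* measured 128 and 140.0 CPM in P1 GFP+ cells and 43.4 and 51.8 CPM in P1 GFP- cells. *Tbx3* was lower at P1 (-2.11, adjusted p = 0.00134) and did not pass the test at P6 (-0.36, adjusted p = 0.686), where it was -1.78 and called without P6 GFP+ replicate 2 and 0.36 without replicate 1. The other 3 were too low for the test between the fractions. Of the other POU class III genes, *Pou3f1* (-4.24) and *Pou3f2* (-2.12) were lower in GFP+ cells at P1 and did not pass the test at P6 (-0.91, adjusted p = 0.133, and -0.60, adjusted p = 0.163). Both passed at P6 without P6 GFP+ replicate 2 (-1.60 and -0.92), and without replicate 1 they did not (-0.41 and -0.31). *Pou3f3*, the most abundant of them per exon length, differed by -0.39 (adjusted p = 0.0747) at P1 and -1.15 (adjusted p = 0.00651) at P6.

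Of 8 other carbonic anhydrases, 7 were tested between the fractions. At P1 3 were higher and 3 lower in GFP+ cells, where 25.5% of all genes tested were higher and 28.1% lower. At P6 2 were higher and 3 lower, where 15.5% and 17.9% were. The P6 log2 difference of *Car12* was -0.57 without P6 GFP+ replicate 2 and 0.86 without replicate 1. *Car14* was higher in GFP+ cells at both ages (1.60, adjusted p = 0.000460, and 2.10, adjusted p = 0.00290), opposite to *Car3*. *Car2* was lower at P1 (-1.69, adjusted p = 7.97e-05) and did not pass the test at P6 (0.47, adjusted p = 0.143, or 0.70 and called higher without P6 GFP+ replicate 2), with 33.0 and 30.8 CPM at P1 and 245 and 181 CPM at P6 in GFP+ cells. *Mia1*, a relative of *Otor*, did not pass the test between the fractions at P1 (-0.60, adjusted p = 0.224) or at P6 (0.00, adjusted p = 0.992).

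To compare genes with each other, levels were divided by the length of the annotated exons (CPM per kb). In P6 GFP- cells the order was *Otor* (5436 ± 943, SD, n = 2), *Car3* (2419.5 ± 381), *Pou3f4* (512 ± 62.4), *Coch* (274 ± 3.42), *Tbx18* (119 ± 4.73), *Otos* (69.3 ± 5.48), *Pdgfra* (56.2 ± 5.73), *Twist1* (21.4 ± 0.469) and *Tbx15* (0.929 ± 0.0261), and the SD ranges of neighbours did not overlap. In P1 GFP- cells *Otor* was also highest (2939 ± 458), followed by *Car3* (527 ± 167) and *Pou3f4* (463 ± 42.9), which did not differ beyond their SD. *Tbx18* (156 ± 36.4) and *Coch* (137 ± 2.96) were also within their SD, as were *Otos* (0.496 ± 0.229) and *Tbx15* (0.466 ± 0.101) at the bottom. *Pdgfra* (66.3 ± 0.701) and *Twist1* (27.97 ± 2.52) lay between these pairs. The place of *Otos* depends on its length, as its annotated transcripts are 704 and 2990 bases long, and *Pou3f4* is annotated as a single exon of 1182 bases of which 1083 are coding.

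Across the 8 libraries, which form 4 groups of 2, the log2(CPM + 1) levels of *Coch* and *Otor* had a Pearson r of 0.998. Among the 7 genes other than *Otos* and *Tbx15*, r ran from 0.795 (*Car3* with *Pdgfra*) to 0.998, and *Otos* had r of 0.311 to 0.752 with these 7. Of 12026 genes with a mean of at least 10 CPM in some group, those most like *Coch* were *Aebp1*, *Arhgdib* and *Fcgrt* (r of 0.999, 0.999 and 0.998). Those most like *Otos* were BC021891, *Cabp7* and *Clca5* (0.994, 0.9903 and 0.989). *Clca5* measured 1.21 CPM on average in P1 GFP- cells and 143 CPM in P6 GFP- cells. *Arhgap31*, *Foxc1* and *Aqp1* were most like *Pou3f4* (0.999 each), *Zic5*, *Sdpr* and *Epha3* most like *Tbx18* (0.999 each), and *Htra1* and *Ctsh* were among those most like *Car3* (0.997 and 0.995). *Zbtb8a*, *Tnfaip6* and *Twist2* were most like *Twist1* (0.997 each), *Wbscr17*, *Lrrn3* and *Nkd1* most like *Pdgfra* (0.999, 0.999 and 0.998), and *Arhgdib*, *Cdc42ep1* and *Coch* itself most like *Otor* (0.999, 0.998 and 0.998). These are descriptions over libraries that share the contrast of the fractions, and r above 0.99 was reached by 94 genes for *Coch* and by 2 for *Otos*.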

How the data were processed

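Reads were aligned by the authors with TopHat (version 1.4.0 in the submitters' processing notes) to mm9 (NCBIM37). The authors deposited a raw count per Ensembl gene for each of the 8 libraries, counted with HTSeq, without normalization. The counting mode and strand setting are not given in the sources used here, and no annotated gene overlapped any of the 9 genes. Lines that name no gene, 23.8% to 35.3% of each library's total, were left out of library sizes and tests. Depth on genes was 17769024 to 67695039 counts, so a gene with few counts, such as *Tbx15*, is known with little precision.

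Groups follow the age and GFP fraction that the labels give. Each pair of groups was fitted on its 4 libraries over all genes with edgeR 4.0.16 (R 4.3.3): TMM normalization, filterByExpr at its minimum count of 10 and minimum total of 15, the quasi-likelihood test and Benjamini-Hochberg adjustment, called at an adjusted p below 0.05. The interaction of age and fraction used all 8 libraries. CPM values, their ratios and the order of libraries use library gene totals without TMM, whereas log2 differences are TMM-scaled unless stated. A log2 difference is GFP+ minus GFP- cells or P6 minus P1. Over the 8 libraries the TMM factors were 1.09 and 1.09 in P1 GFP- and 0.914 and 0.957 in P6 GFP- cells. CPM ratios of P6 to P1 in GFP- cells therefore lay below the TMM-scaled differences. The procedure was also run on simulated data with the same dispersion for all genes and no replicate that stood apart. These settings differ from the data, so no conclusion is drawn from that run. The labels and methods describe the replicates only as duplicates, so p-values measure the spread between these libraries, which may be technical.

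The 9 genes, the related lists and the marker lists were chosen with earlier results of these data known. The text names all 9 genes, up to 4 genes of a related list by highest level together with any that move against the rest, and the 3 genes most like each of the 9 (r over log2(CPM + 1), genes of at least 10 CPM in some group), apart from a few that are not reported here. Further list members are named where a count of 5 or fewer asked for it, after their values were seen. Promoter sequences came from a RefSeq table (GRCm38.p6) and no coordinates were converted between builds. The alternatives were DESeq2 1.42.0 size factors or its test, library totals, dropping the low-count filter, all 8 libraries in each fit, a replicate block, the criteria of the study, and leaving out each library. A crossed replicate block, and the related and marker lists without single GFP+ libraries, were chosen after seeing the data.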

Additional observations from a re-analysis of the deposited data

Results flagged for a closer look

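Both results below drew notice because the difference of GFP+ from GFP- cells was not the same at P6 as at P1, by the interaction test of edgeR over all 8 libraries. *Coch* had an interaction of 2.28 on the log2 scale (SE 0.53, adjusted p = 0.0452): it was 54.9 times higher in GFP- cells at P1 and 10.3 times higher at P6. Leaving out P6 GFP+ replicate 2 gave 1.39 and leaving out P6 GFP+ replicate 1 gave 2.80, both past the threshold, whereas the other 6 libraries each ended the call when left out (2.17 to 2.41, adjusted p = 0.0750 to 0.184). With a replicate block the call also ended (2.19, adjusted p = 0.0847).

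*Twist1* had an interaction of 2.01 (SE 0.32, adjusted p = 0.0106), with GFP- to GFP+ ratios of 38.3 at P1 and 8.86 at P6. It was 1.61 without P6 GFP+ replicate 2 and 2.29 without P6 GFP+ replicate 1. The call ended without either P1 GFP+ library (1.94 and 2.09, adjusted p = 0.0768 and 0.0551) or either P6 GFP- library (2.06 and 1.95, adjusted p = 0.0598 and 0.0714). In P6 GFP+ replicate 2, where both genes were higher than in replicate 1, the osteoblast, endothelial and melanocyte lists were also higher by 3.19 to 3.83 times, and their part in the interaction was not tested.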

How the results depend on the processing

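At P1 the count of 8 genes lower in GFP+ cells stayed at 8 under every alternative except the fit without P1 GFP- replicate 1, which gave 9. At P6 the count of 8 ran from 5 to 9 over left-out libraries (5 without P6 GFP- replicate 2) and was 3 under the criteria of the study, which left 4 of the 12 other mesenchyme genes. In GFP- cells the 5 genes higher at P6 became 2 with all 8 libraries in the fit, where *Coch* (adjusted p = 0.0670), *Otor* (0.158) and *Tbx15* (0.323) lost the call, 3 to 5 over left-out libraries, and 2 under the criteria of the study. For the 15 other mesenchyme genes, 7 higher and 2 lower became 3 and 1 with all 8 libraries, 2 to 9 and 1 to 2 over left-out libraries, and 0 and 0 under the criteria of the study. In GFP+ cells the 5 genes higher at P6 became 8 without the filter, 4 to 9 over left-out libraries and 0 under the criteria of the study, and the 11 other mesenchyme genes became 3 to 15 over left-out libraries and 3 under those criteria. For the interaction, the 2 genes with a positive value became 6 with the DESeq2 test, 7 without the filter, 0 to 8 over left-out libraries and 0 under the criteria of the study. The 0 genes with a negative call became 1 (*Otos*) with DESeq2 and without the filter, and 0 to 1 over left-out libraries, where 2.79% of all genes tested were called. Scaled by library totals, 840 genes had a positive and 413 a negative interaction, against 692 and 536 with TMM. The shares of all genes moved with these settings. A positive interaction was called for 3.6% in the main fit, 7.66% with the DESeq2 test and 7.49% without the filter. A negative one was called for 2.79%, 4.32% and 3.78% in that order. In GFP+ cells 12.1% were called higher at P6 in the main fit and 12.7% without the filter.

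Same-numbered libraries did not deviate together, so the numbers were not read as pairs. The correlation of their deviations ran from 0.0225 (P1 GFP+ and GFP-) to 0.0839 (P6 GFP+ and GFP-) between fractions and was -0.276 between P1 and P6 GFP- cells and -0.0861 between P1 and P6 GFP+ cells. The replicate block left 1 gene with a positive interaction, where 2.08% of all genes tested had one. It ended the rise of *Tbx15* in GFP- cells (1.20, adjusted p = 0.0725) and the interaction of *Coch* (2.19, adjusted p = 0.0847). It gave 7 genes higher in GFP+ cells at P6, where 10.6% of all genes tested were. In GFP- cells it called 1587 genes higher and 979 lower at P6, and the crossed pairing called 2948 and 2533, with 5 of the 9 genes higher.

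Directions changed only when a library was left out, for values that had not passed the test: in GFP- cells *Tbx18* ran from -0.44 to 0.045 (without P1 GFP- replicate 1) and *Pdgfra* from -0.18 to 0.092 (without P6 GFP- replicate 2). *Pdgfra* in GFP+ cells ran from -0.25 to 1.06, its interaction from -0.24 to 1.07 and that of *Tbx15* from -6.20 to 2.88, each lowest without P6 GFP+ replicate 2, the last of which rests on 0 counts in the remaining P6 GFP+ library and depends on the prior count. The cause of these changes was not tested. With 2 libraries a group, and 17769024 counts in the smallest, differences of low genes were known with little precision.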
